A study of Arabidopsis thaliana with 18 samples.

Results

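The comparison described here is between leaves that had been through a week of recurring excess light (EL) and leaves that had not, before any further EL was given. It rests on 6 of the 18 samples of the series, taken by their group labels: 3 mRNA-seq libraries from primed (P) plants and 3 from naive (N) plants. All were wild-type (WT) Arabidopsis thaliana of the Col-0 ecotype at 3 weeks of age, carrying no transgene or mutation. Each library was made from true leaves 4 to 9 of an independent plant, so it averages over all cell types of those leaves. Naive plants were grown at 100 to 150 µmol photons m-2 s-1 under a 12-h photoperiod. Primed plants also received EL of 1000 µmol photons m-2 s-1 for 1 h, 3 times a day through the week, and were sampled without a further exposure. The triggered groups, naive (N+T) and primed (P+T) plants given 1 more EL exposure, have 3 libraries each. They give values in other plants. All of their libraries but N+T-r3 also enter the main fit, which shares its estimate of the spread among groups. The hour of day at which each plant was sampled is not given in the sources used here.

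A leaf in strong light absorbs more energy than its photosynthesis can use, and it answers within minutes through thermal dissipation and, over hours to days, through transcripts for photoprotection, antioxidants, chaperones and pigments. Priming is the altered state that a repeated stress leaves behind, and the question of this comparison was whether that state is visible in the transcriptome while the plant is at rest. Leaf transcriptomes also follow the circadian clock, in which the morning factors CCA1 and LHY and the evening factor TOC1 repress one another, and they reflect how many leaf cells still divide.

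The count tables hold between 14956280 counts (N-r1) and 33081543 counts (P-r3) per library. Organelle and rRNA loci took 0.0521% to 0.211% of them, and 2.56% in N-r1. Levels are given as CPM, each count set against the TMM-scaled nuclear total of its library on the usual per-megaread scale, and the test covered 17986 nuclear loci that exceeded 1 CPM in 3 or more of the 12 mRNA libraries. N-r3 stood apart from the other naive libraries. The median absolute log2 difference over loci was 0.151 between N-r1 and N-r2, and 0.757 and 0.740 between N-r3 and each of them. Primed libraries differed from N-r1 or N-r2 by 0.245 to 0.352, and among themselves by 0.272 (P-r2 and P-r3) to 0.417 (P-r1 and P-r2), so the gap between groups was no wider than that between P-r1 and the other primed libraries. The study left N-r3 out, and estimates below are without it unless stated, from 2 naive and 3 primed libraries, with the value including N-r3 beside them. Standard errors, intervals and tests also draw on the spread within the triggered groups.

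The separation of N-r3 had a simple form across genes. Measured against the mean of the other 5 naive and primed libraries, N-r3 was higher by a median of 0.72 on the log2 scale at the 2289 loci whose longest annotated transcript is at most 1000 bases, and it was lower by a median of 2.60 at the 760 loci with transcripts of more than 4000 bases (log2 value −2.60). Every other library, triggered ones included, stayed between −0.10 and 0.11 in each of 6 length classes. Over the 17986 loci, the correlation of the difference with log2 transcript length was −0.62 in N-r3 and between −0.06 and 0.07 in the other 11 libraries, as a description across genes, which are not independent replicates. The gene for the ubiquitin ligase UPL1, with the longest transcript among the 8 loci lowest in N-r3 relative to N-r1 and N-r2 (11404 bases), read 141 CPM in N-r1 and 159 in N-r2, 2.59 in N-r3, and 119, 145 and 133 CPM in P-r1, P-r2 and P-r3. The 8 loci highest in N-r3 in the same sense had transcripts of 830 to 1538 bases, among them SAG13, a senescence-associated gene, with 3.71 CPM in N-r1 and 1.33 in N-r2, 109.7 in N-r3, and 29.4, 0.452 and 28.8 CPM in P-r1, P-r2 and P-r3. With the length trend removed, the median absolute difference between N-r3 and the mean of N-r1 and N-r2 went from 0.741 to 0.547, so most of the separation remained. What made N-r3 differ by transcript length was not tested, and values with N-r3 are therefore given as deposited and with the trend removed.

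**Figure D1:**
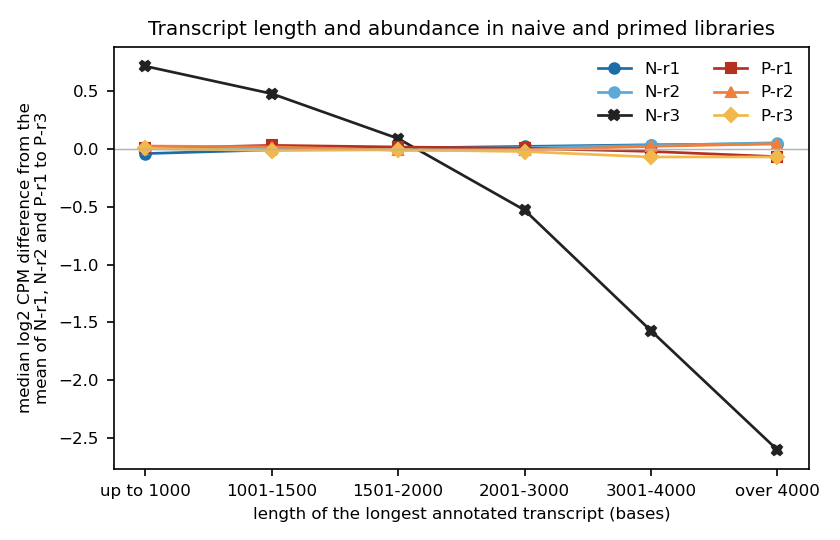
Median log2 CPM difference of each naive and primed library from the mean of N-r1, N-r2, P-r1, P-r2 and P-r3 (vertical axis), in 6 classes of the length of the longest annotated transcript in bases (horizontal axis). The line of N-r3 runs from 0.72 in the shortest to −2.60 in the longest class, and the 5 other lines lie near 0.

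No locus differed between P and N at an adjusted p below 0.05 (0% of 17986 loci, edgeR quasi-likelihood test with Benjamini-Hochberg adjustment, smallest adjusted p = 0.261). DESeq2, also without N-r3, did call loci at an adjusted p below 0.05, 211 higher (1.17%) and 131 lower (0.728%). Its smallest adjusted p was 9.31e-09 (DESeq2). Without adjustment, 1576 loci (8.76%) had an edgeR p below 0.05, 876 (4.87%) with a higher and 700 (3.89%) with a lower level in P. With N-r3 as deposited the unadjusted edgeR counts were 408 higher (2.27%) and 369 lower (2.05%). With its length trend removed they were 438 (2.44%) and 491 (2.73%), with no adjusted call in either edgeR fit. With only the naive and primed libraries fitted and N-r3 left out, 1192 loci had an unadjusted p below 0.05. The smallest adjusted p there was 0.715 (edgeR). The counts also followed single libraries. Without P-r1 there were 10.7% higher and 9.69% lower at an unadjusted p below 0.05, without P-r1 but with N-r3 4.43% and 5.16%, without P-r3 3.96% and 4.29%, without N-r1 1.65% and 1.52%, and without N-r2 1.86% higher. The estimates bound how large a residual difference could be. At 10766 loci (59.9%) the 95% interval of the log2 difference lay between −1 and 1, and the median distance from the estimate to the end of its interval was 0.602. At the remaining loci a difference of more than 1 log2 unit lay within the interval. Each value below is a level or an estimated log2 difference, P minus N, with its standard error (SE).

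Genes of DNA replication and cell division were lower in P than in N-r1 and N-r2. All 20 members tested had an estimate below 0 in P, with a median log2 difference of −0.87 against 0.02 over all loci. At an unadjusted p below 0.05, 14 of the 20 were lower and none was higher, where 3.89% of all loci were lower. In 16 of the 20, each of the 3 primed libraries lay below both N-r1 and N-r2, a separation seen at 12.3% of all loci in this direction and at 11.3% in the other. The summed level of the group was 304 and 306 CPM in N-r1 and N-r2, against 181, 162 and 148 CPM in P-r1, P-r2 and P-r3, with no overlap. In N-r3 it was 60.9 CPM, below every primed library. Since the libraries are whole leaves, fewer dividing cells and less transcript per dividing cell cannot be told apart.

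The MCM2 to MCM7 proteins form the ring-shaped helicase that opens DNA at replication origins. MCM5 (AT2G07690, chr2:3522984-3527500) was at 17.1 CPM in N-r1 and 15.3 in N-r2 and at 8.13, 7.95 and 6.2 CPM in P-r1, P-r2 and P-r3, an estimated difference of −1.12 ± 0.16 (adjusted p = 0.261, edgeR). Its level in N-r3 was 0.862 CPM, lower than in any primed library, and the estimate with N-r3 was −0.58. MCM6 read 11.9 CPM in N-r1 and 12.3 in N-r2, 0.274 in N-r3, and 6.56, 5.01 and 5.78 CPM in P-r1, P-r2 and P-r3 (−1.06 ± 0.16). MCM2 read 21.8 CPM in N-r1 and 22.6 in N-r2, 0.353 in N-r3, and 14.0, 9.65 and 9.03 CPM in P-r1, P-r2 and P-r3 (−1.02 ± 0.20). Thus in all 3 genes the primed libraries lay together, below N-r1 and N-r2 and above N-r3. The estimates of MCM3, MCM4 and MCM7 were −1.02, −1.01 and −0.91.

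These genes are known targets of E2F factors, which switch on S-phase transcription in plants and animals, and their promoters are shown because the sites lie close to the gene starts. The stretches below are the 80 bases directly before the annotated start, in the direction of the gene, from the TAIR10.1 reference sequence (MCM5 chr2:3527501-3527580, reverse strand. MCM6 chr5:18010668-18010747, reverse strand. MCM2 chr1:16970134-16970213, forward strand). Capitals mark the letters TTTCCCGC, which in MCM6 run along the other strand and appear as GCGGGAAA.
MCM5 promoter: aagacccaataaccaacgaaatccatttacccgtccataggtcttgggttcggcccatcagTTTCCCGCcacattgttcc
MCM6 promoter: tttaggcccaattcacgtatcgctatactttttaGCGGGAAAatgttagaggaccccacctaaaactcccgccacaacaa
MCM2 promoter: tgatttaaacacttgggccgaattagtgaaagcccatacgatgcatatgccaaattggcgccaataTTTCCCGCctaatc

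The match begins 19 bases before the start in MCM5, 46 in MCM6 and 14 in MCM2. Among the promoters of all loci tested (250 bases before to 50 after the start, both strands), 0.840% held TTTCCCGC, and among the 700 loci lower in P at an unadjusted p below 0.05, 42 did (6%). Of these 42, 4 belong to the replication group (MCM2, MCM5, MCM6 and RNR1). The second E2F form searched, TTTGGCGC, was in 0.489% of all promoters and in 14 of the 700 (2%), MCM3 and MCM4 included. Both motifs were chosen after the values were seen, no test was made of these shares, and a match is not a bound site.

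Other S-phase genes were also below N-r1 and N-r2 in every primed library. PCNA1, the sliding clamp of DNA polymerase, read 12.5 CPM in N-r1 and 12.0 in N-r2, 1.57 in N-r3, and 6.4, 5.20 and 5.63 CPM in P-r1, P-r2 and P-r3 (−1.09 ± 0.15). RNR1, the large subunit of ribonucleotide reductase, which makes the DNA building blocks, read 56.6 CPM in N-r1 and 61.8 in N-r2, 2.86 in N-r3, and 30.0, 30.8 and 28.9 CPM in P-r1, P-r2 and P-r3 (−0.98 ± 0.14). TSO2, its small subunit, read 52.9 CPM in N-r1 and 53.8 in N-r2, 22.4 in N-r3, and 34.9, 22.7 and 23.8 CPM in P-r1, P-r2 and P-r3 (−0.97 ± 0.22). For PCNA1 and RNR1 the primed libraries were close to one another, and for TSO2 P-r2 was near the level of N-r3. The mitotic cyclin gene CYCB1-2 read 4.72 CPM in N-r1 and 4.26 in N-r2 and 2.23, 3.65 and 1.91 CPM in P-r1, P-r2 and P-r3 (−0.79 ± 0.30). The Aurora kinase gene AUR2 had P-r2 inside the naive values, with 1.45 CPM in N-r1 and 1.98 in N-r2 and 0.469, 1.96 and 0.763 CPM in P-r1, P-r2 and P-r3. H3.1, a replication-dependent histone H3 gene, read 33.8 CPM in N-r1 and 32.3 in N-r2, 17.1 in N-r3, and 22.1, 20.0 and 21.6 CPM in P-r1, P-r2 and P-r3 (−0.63 ± 0.16), and its near-identical copies make its count uncertain.

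**Figure D2:**
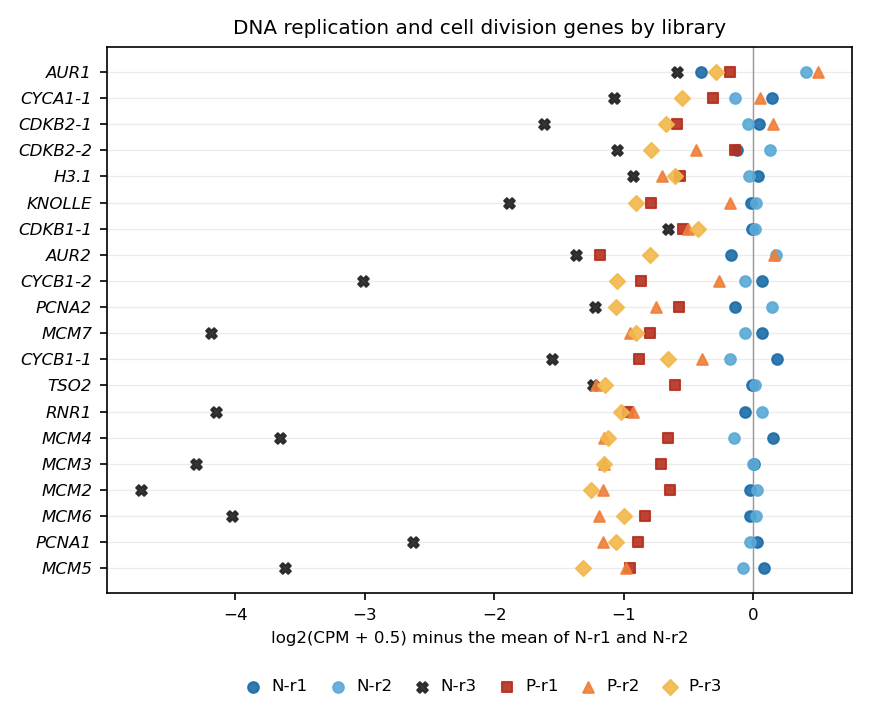
Level of each of the 20 DNA replication and cell division genes in the 6 naive and primed libraries, as log2(CPM + 0.5) minus the mean of N-r1 and N-r2 (horizontal axis), 1 row per gene and 1 symbol per library. For MCM5 the primed libraries (6.2 to 8.13 CPM) lie left of N-r1 and N-r2 (15.3 and 17.1 CPM), and N-r3 (0.862 CPM) lies farthest left.

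The group's position depended on which naive libraries stood for the resting state. With N-r3 the median was −0.42, with its length trend removed −0.39, and no member reached an unadjusted p of 0.05 in either fit. In a fit of the 3 naive and 3 primed libraries with the replicate number as a block, added after the data were seen, it was 0.09. Each of the 20 was lower in N-r3 than in N-r1 and N-r2. The members' transcripts have a median of 1735.5 bases, close to the 1768 bases of all loci tested. Leaving out P-r1 left a median of −0.85, with 10 members called lower at an adjusted p below 0.05 (1.34% of all loci called lower). DESeq2 called 11 lower (0.728% of all loci). With only the naive and primed libraries fitted and N-r3 left out, 11 were lower at an unadjusted p below 0.05, among 486 such loci. Without P-r1 but with N-r3 the median was −0.41, with 1 member lower at an unadjusted p below 0.05 (5.16% of all loci) and none called. The triggered plants have no library in the P or N group, though they share the fit and its estimate of the spread. Their median of P+T minus N+T was 0.22, with 2 members higher and none lower at an unadjusted p below 0.05. Over all loci 8.91% were higher and 11.1% lower there, and none (0%) was called after adjustment. The shoot meristem markers STM, KNAT1, WUS and CLV3 had at most 1 count in any naive or primed library. All 5 epidermis markers also had estimates below 0 (median −0.41), and their part in the lower replication levels was not tested.

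Genes of DNA methylation include enzymes that copy methylation onto newly replicated DNA. Of 22 tested, 6 were lower and none higher at an unadjusted p below 0.05 (3.89% of all loci lower), with a median of −0.19 that turned to 0.19 with N-r3 and to 0.07 with its trend removed. CMT3, which methylates CHG cytosines, read 15.0 CPM in N-r1 and 14.6 in N-r2, 3.17 in N-r3, and 8.79, 7.23 and 7.28 CPM in P-r1, P-r2 and P-r3 (−0.92 ± 0.16, −0.67 with N-r3 and its trend removed). MET1, which maintains CG methylation behind the replication fork, read 23.1 CPM in N-r1 and 27.1 in N-r2, 3.76 in N-r3, and 12.7, 16.5 and 13.7 CPM in P-r1, P-r2 and P-r3 (−0.81 ± 0.19). VIM1, a partner of MET1 that binds hemimethylated DNA, read 11 CPM in N-r1 and 9.40 in N-r2, 1.02 in N-r3, and 5.76, 6.25 and 4.99 CPM in P-r1, P-r2 and P-r3 (−0.84 ± 0.21). In all 3 the primed libraries lay below N-r1 and N-r2 and above N-r3. The demethylase gene ROS1 had P-r2 above the naive values, at 54.1 CPM in N-r1 and 55.2 in N-r2 and 34.1, 57.3 and 35 CPM in P-r1, P-r2 and P-r3. STRS2, an RNA helicase gene, was at 17.0 CPM in N-r1 and 19.5 in N-r2 and 10.7, 16 and 22.7 CPM in P-r1, P-r2 and P-r3, so neither ROS1 nor STRS2 was separated between groups.

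The morning genes of the circadian clock were higher in P. Of 14 tested, 11 were higher and none lower at an unadjusted p below 0.05, against 4.87% of all loci, with a median log2 difference of 1.81. In 12 of the 14 every primed library was above N-r1 and N-r2 (11.3% of all loci), and in 6 every primed library was above all 3 naive ones (3.9% of all loci, and 3.87% in the other direction). DESeq2 called 8 of the 14 higher (1.17% of all loci). The group was summed to 325, 323 and 199 CPM in N-r1, N-r2 and N-r3 and to 444, 578 and 802 CPM in P-r1, P-r2 and P-r3, with every primed library above every naive one.

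CCA1, a MYB-related repressor that peaks at dawn (AT2G46830, chr2:19245591-19248915), read 3.46 CPM in N-r1 and 4.16 in N-r2, 3.29 in N-r3, and 6.56, 10.0 and 54.3 CPM in P-r1, P-r2 and P-r3 (2.63 ± 0.88, adjusted p = 0.439 by edgeR, 95% interval 0.62 to 4.64). P-r3 was far above the rest, and the other primed libraries were also above all naive ones. Its partner LHY read 0.189 CPM in N-r1 and 0.423 in N-r2, 1.57 in N-r3, and 0.992, 0.867 and 10.2 CPM in P-r1, P-r2 and P-r3 (3.63 ± 1.23), so N-r3 lay above P-r1 and P-r2. PRR9, a morning pseudo-response regulator that represses CCA1 and LHY, read 2.64 CPM in N-r1 and 2.18 in N-r2, 4.86 in N-r3, and 9.48, 12.0 and 42.1 CPM in P-r1, P-r2 and P-r3 (3.15 ± 0.66, 2.71 with N-r3), with no overlap between the groups. RVE7, a MYB-related gene of the CCA1 family, had a small spread within P, with 5.41 CPM in N-r1 and 7.58 in N-r2, 11.6 in N-r3, and 14.9, 14.2 and 12.9 CPM in P-r1, P-r2 and P-r3 (1.1 ± 0.19). LNK2, a coactivator that works with the RVE proteins, read 40.1 CPM in N-r1 and 41.7 in N-r2, 22.8 in N-r3, and 64.7, 97.2 and 151 CPM in P-r1, P-r2 and P-r3 (1.35 ± 0.38). PRR7, which follows PRR9 in the day, read 164 CPM in N-r1 and 160.1 in N-r2, 23.6 in N-r3, and 212, 278 and 247 CPM in P-r1, P-r2 and P-r3 (0.60 ± 0.18). The members without separation from N-r1 and N-r2 were RVE2 and RVE6, for example RVE6 with 12.1 CPM in N-r1 and 12.7 in N-r2 and 12.1, 12.5 and 11.7 CPM in P-r1, P-r2 and P-r3.

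The G-box CACGTG is bound by light-related bHLH and bZIP factors and lies in the promoters of 10 of these 14 genes, against 9.03% of all promoters tested and 11.3% of those of the 876 loci higher in P. Stretches of 80 bases around it are shown for the genes named first, in the direction of the gene, with the G-box in capitals (TAIR10.1, CCA1 chr2:19245363-19245442, forward strand. LHY chr1:37907-37986, reverse strand. PRR9 chr2:19232400-19232479, forward strand). It begins 193 bases before the annotated start in CCA1, 80 in LHY and 172 in PRR9.
CCA1 promoter: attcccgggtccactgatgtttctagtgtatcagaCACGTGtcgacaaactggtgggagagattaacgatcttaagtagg
LHY promoter: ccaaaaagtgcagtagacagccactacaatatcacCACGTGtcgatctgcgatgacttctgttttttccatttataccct
PRR9 promoter: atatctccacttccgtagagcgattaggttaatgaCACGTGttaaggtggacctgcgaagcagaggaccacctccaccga

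Genes listed as evening clock had a median of −0.36 over 18 tested, −0.03 with N-r3, and P-r3 stood apart from the other primed libraries. GI, a scaffold protein of the evening, read 247 CPM in N-r1 and 257 in N-r2, 17.5 in N-r3, and 245, 201 and 95.8 CPM in P-r1, P-r2 and P-r3. TOC1 read 118 CPM in N-r1 and 135 in N-r2, 46.9 in N-r3, and 145, 94.7 and 16.8 CPM in P-r1, P-r2 and P-r3. ELF4, a member of the evening complex, read 64.6 CPM in N-r1 and 81.1 in N-r2, 21.7 in N-r3, and 56.8, 31.8 and 2.89 CPM in P-r1, P-r2 and P-r3. In these 3 genes P-r1 was the closest of the primed libraries to N-r1 and N-r2, P-r2 was lower and P-r3 lowest. The evening-peaking RNA-binding protein gene GRP7 was at 3081, 3322 and 2474 CPM in N-r1, N-r2 and N-r3 and 2964, 2353 and 392 CPM in P-r1, P-r2 and P-r3. Of the 18, CDF1 was the only one at an unadjusted p below 0.05, and it was higher (1.5 ± 0.41). CDF1 encodes a repressor of flowering whose transcript is known to peak in the morning, unlike most of this list, and it read 7.30 CPM in N-r1 and 7.06 in N-r2, 7.91 in N-r3, and 11, 18.5 and 31.5 CPM in P-r1, P-r2 and P-r3. The evening element AAAATATCT was in 7 of the 18 promoters and in 3.12% of all.

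P-r3 thus had the highest level of the 6 libraries at CCA1, LHY, PRR9 and LNK2 and the lowest at TOC1, ELF4 and GRP7. Leaving out P-r3 brought the median of the morning genes to 1.14, with 10 of 14 still higher at an unadjusted p below 0.05 (3.96% of all loci). It brought that of the evening genes to −0.02. Leaving out P-r1 gave 2.11 for the morning genes, with 6 called at an adjusted p below 0.05, where 2.2% of all loci were called higher. With N-r3 the morning median was 1.09, with 6 of 14 higher (2.27% of all loci), and with its trend removed 1.01, with 8 of 14 (2.44%). In the triggered plants the median of P+T minus N+T was −0.18 for the same genes. Clock transcripts change over the day in any leaf, and since the hour of sampling of each library is not given in the sources used here, its part in these differences was not tested.

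**Figure D3:**
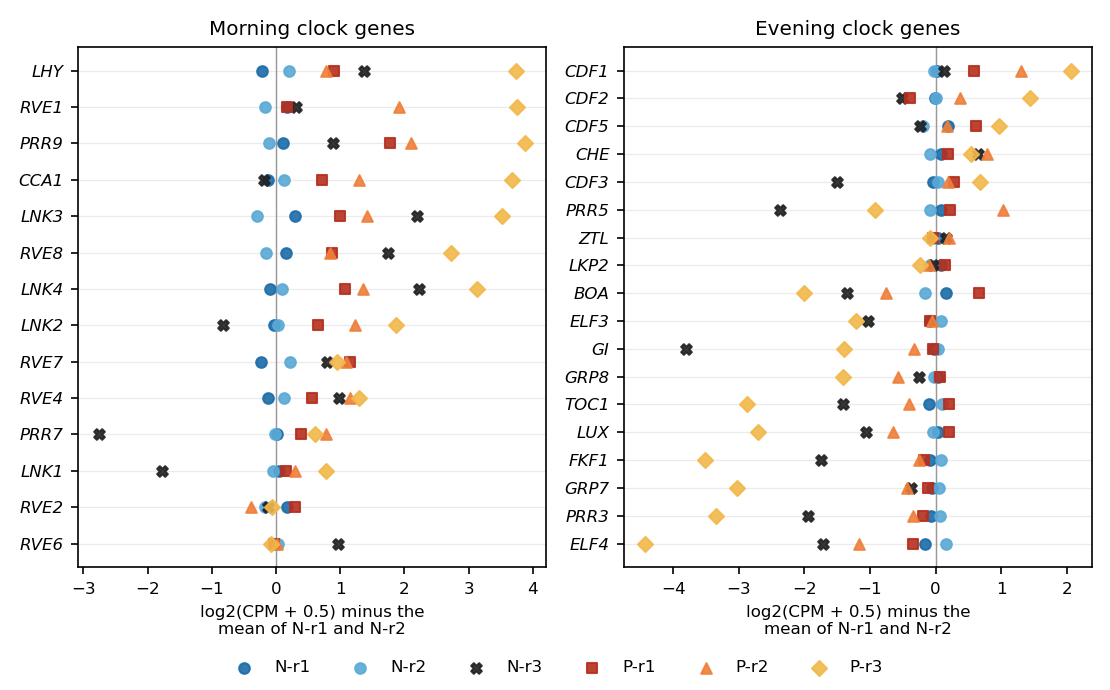
Levels of 14 morning (left) and 18 evening (right) clock genes in the 6 naive and primed libraries, as log2(CPM + 0.5) minus the mean of N-r1 and N-r2 (horizontal axes), 1 row per gene, ordered by the estimated difference, and 1 symbol per library. P-r3 is the symbol farthest to the right for CCA1, LHY, PRR9, RVE1 and LNK2 and farthest to the left for ELF4, GRP7, TOC1, LUX and FKF1.

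Several genes of nitrate assimilation were also higher in P. Of 15 tested, 7 were higher and none lower at an unadjusted p below 0.05 (4.87% of all loci higher, median 0.72, 0.41 with N-r3, 0.31 with its trend removed), and in 4 every primed library was above every naive one (3.9% of all loci). NIA2, which encodes the main leaf nitrate reductase, read 105 CPM in N-r1 and 67.8 in N-r2, 136 in N-r3, and 382, 517 and 1477 CPM in P-r1, P-r2 and P-r3 (3.20 ± 0.63, adjusted p = 0.267 by edgeR, 2.94 with N-r3). NIA1, the second nitrate reductase gene, read 29.9 CPM in N-r1 and 32.0 in N-r2, 9.99 in N-r3, and 132, 61.6 and 199 CPM in P-r1, P-r2 and P-r3 (2.09 ± 0.45). UPM1 makes a precursor of siroheme, the cofactor of nitrite reductase, and read 26.2 CPM in N-r1 and 20.2 in N-r2, 40.5 in N-r3, and 48.5, 48.3 and 67.3 CPM in P-r1, P-r2 and P-r3 (1.24 ± 0.25). For all 3 genes every primed library was above every naive library, N-r3 included. The nitrogen-responsive LBD37 and LBD39, repressors of nitrate genes, had N-r3 above or among the primed libraries instead, with 75.0 CPM of LBD37 in N-r3 beside 5.07, 51.2 and 48.4 CPM in P-r1, P-r2 and P-r3. NIR1, the nitrite reductase gene, was at 265 CPM in N-r1 and 267 in N-r2, 261 in N-r3, and 285, 254 and 514 CPM in P-r1, P-r2 and P-r3, so that only P-r3 was far from the naive libraries. Nitrate reductase transcripts are known to follow the clock and the light of the day.

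Photorespiration recycles the product that Rubisco makes with oxygen, through chloroplast, peroxisome and mitochondrion. All 12 genes tested had estimates above 0, with a median of 0.49 that was 0.50 with N-r3 and 0.47 with its trend removed, so it hardly depended on that library. At an unadjusted p below 0.05, 3 were higher (4.87% of all loci), and 8 without P-r1 (10.7% of all loci). In 6 of the 12 every primed library was above every naive library, as at 3.9% of all loci. GGT1, the peroxisomal glutamate:glyoxylate aminotransferase, read 1151 CPM in N-r1 and 1244 in N-r2, 562 in N-r3, and 1743, 1967 and 2506 CPM in P-r1, P-r2 and P-r3 (0.80 ± 0.22, 1.07 with N-r3). SHM1, the mitochondrial serine hydroxymethyltransferase, read 2139 CPM in N-r1 and 2528 in N-r2, 904 in N-r3, and 2755, 3742 and 4374 CPM in P-r1, P-r2 and P-r3 (0.64 ± 0.26). CAT2, the catalase that removes the peroxide made by this pathway, read 452 CPM in N-r1 and 414 in N-r2, 468 in N-r3, and 556, 630.0 and 1577 CPM in P-r1, P-r2 and P-r3 (1.09 ± 0.51). In GGT1, SHM1 and CAT2, P-r3 was highest and P-r1 lowest among the primed libraries, and all 3 were above the naive ones.

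Light-harvesting genes split the primed group. All 20 tested had estimates above 0 (median 0.76, 0.24 with N-r3 and 0.45 with its trend removed), 4 of them at an unadjusted p below 0.05 (4.87% of all loci), but in none did the 3 primed libraries clear the 3 naive ones. Without P-r1, 15 were higher at that threshold (10.7% of all loci) and 4 were called (2.2% of all loci called higher). Without N-r1 or without N-r2 none passed the unadjusted threshold, where 1.65% and 1.86% of all loci were higher. The summed level was 66739 and 72103 CPM in N-r1 and N-r2, 67848 in P-r1, 151666 in P-r2 and 114025 in P-r3, and 142803 in N-r3. P-r1 was therefore at the level of N-r1 and N-r2, while P-r2, P-r3 and N-r3 were all above them. LHCB2.1, a trimeric antenna protein of photosystem II (PSII), read 737 CPM in N-r1 and 693 in N-r2, 4458 in N-r3, and 802, 4358 and 4007 CPM in P-r1, P-r2 and P-r3 (2.1 ± 0.70). LHCB2.3 read 406 CPM in N-r1 and 351 in N-r2, 1222 in N-r3, and 334, 2437 and 2617 CPM in P-r1, P-r2 and P-r3 (2.25 ± 0.79). LHCB2.1 and LHCB2.2 are near-identical copies, and since only uniquely mapping reads were kept, their separate values are uncertain.

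Other photosynthetic groups leaned the same way by less. Calvin-Benson cycle genes were above 0 in 20 of 20 (median 0.32, 0.18 with N-r3), with 1 at an unadjusted p below 0.05, RBCS2B (4.87% of all loci). Without P-r1, 10 of the 20 were higher (10.7% of all loci) and the median was 0.52. Of 13 quenching and xanthophyll-cycle genes, 12 were above 0 and 4 were higher at that threshold (4.87% of all loci, median 0.38, 0.19 with N-r3). Without P-r1 7 were higher (10.7% of all loci), and without N-r1 none was (1.65% of all loci). ZEP, the zeaxanthin epoxidase that closes the xanthophyll cycle, read 185 CPM in N-r1 and 197 in N-r2, 237 in N-r3, and 199.6, 428 and 706 CPM in P-r1, P-r2 and P-r3 (1.22 ± 0.45), with P-r1 at the naive level. STN7, the kinase that moves antenna between photosystems, read 90.5 CPM in N-r1 and 98.3 in N-r2, 83.6 in N-r3, and 108, 193 and 215 CPM in P-r1, P-r2 and P-r3 (0.87 ± 0.29), and all primed libraries were above all naive ones. PSBS, the sensor protein of energy-dependent quenching, read 945 CPM in N-r1 and 1070.0 in N-r2, 2243 in N-r3, and 836, 1526 and 2491 CPM in P-r1, P-r2 and P-r3, with P-r1 lowest of the 6. The genes of thermal dissipation were thus not uniformly higher in P.

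PSII repair genes, whose products replace light-damaged reaction centre protein, had 3 of 11 higher at an unadjusted p below 0.05 (4.87% of all loci, median 0.44, 0.13 with N-r3). Without P-r1 6 were higher (10.7% of all loci), and without N-r1 none was (1.65% of all loci). FTSH8, a subunit of the thylakoid protease that degrades damaged D1 protein, read 115 CPM in N-r1 and 124 in N-r2, 89.4 in N-r3, and 162, 192 and 282 CPM in P-r1, P-r2 and P-r3 (0.83 ± 0.26). FTSH2, another subunit of that protease, read 1031 CPM in N-r1 and 1176 in N-r2, 782 in N-r3, and 1289, 1546 and 1510.4 CPM in P-r1, P-r2 and P-r3 (0.40 ± 0.22). In every primed library both were above every naive one, as at 3.9% of all loci, and so was 1 other member of the 11. OHP2, a one-helix protein needed to assemble PSII, read 117 CPM in N-r1 and 140.4 in N-r2, 287 in N-r3, and 155, 205 and 210.0 CPM in P-r1, P-r2 and P-r3 (0.57 ± 0.19), and N-r3 was the highest of all 6 there.

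Transcripts that EL itself induces mostly overlapped between P and N. Of 14 acute EL markers tested, 2 were higher and none lower at an unadjusted p below 0.05 (4.87% of all loci higher, median 0.97, 0.40 with N-r3). Without P-r1 the median was −0.09, with 2 higher (10.7% of all loci), 4 lower (9.69%) and 2 of the latter called (1.34% called lower). With the replicate number as a block it was −0.18, and with the block in the 6 naive and primed libraries −0.50. ELIP1, an early light-induced protein that binds chlorophyll, read 1.64 CPM in N-r1 and 1.33 in N-r2, 7.87 in N-r3, and 3.28, 3.01 and 20.0 CPM in P-r1, P-r2 and P-r3 (2.57 ± 0.90). GPX7, a chloroplast glutathione peroxidase, read 7.80 CPM in N-r1 and 4.88 in N-r2, 17.5 in N-r3, and 12.4, 11.7 and 39.4 CPM in P-r1, P-r2 and P-r3 (1.75 ± 0.54). In both genes P-r3 was the highest and N-r3 lay above P-r1 and P-r2. ZAT10, a zinc-finger repressor of the early EL response, read 12.1 CPM in N-r1 and 5.11 in N-r2, 25.7 in N-r3, and 5.02, 1.81 and 21.0 CPM in P-r1, P-r2 and P-r3, so the groups overlapped.

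Heat shock proteins and factors were spread widely within P. The 27 tested had a median of 0.61 with none at an unadjusted p below 0.05 in either direction, and without P-r1 the median was −3.17, with 14 lower (9.69% of all loci), 8 of them called (1.34% of all loci). Without P-r1 but with N-r3, 11 were lower (5.16% of all loci) and none was called. Their summed level was 872, 589.7 and 122 CPM in N-r1, N-r2 and N-r3 and 2327, 168 and 321 CPM in P-r1, P-r2 and P-r3. P-r1 was the highest and N-r3 the lowest of the 6, and the triggered libraries ranged from 13478 to 39655 CPM. HSFA2, the heat shock factor that sustains the response, read 25.7 CPM in N-r1 and 25.5 in N-r2, 7.44 in N-r3, and 163, 0.452 and 0.572 CPM in P-r1, P-r2 and P-r3. HSP101, a disaggregase needed for acquired heat tolerance, read 68.7 CPM in N-r1 and 54.8 in N-r2, 0.940 in N-r3, and 353, 6.25 and 4.89 CPM in P-r1, P-r2 and P-r3. The 8 loci highest in P-r1 relative to P-r2 and P-r3 include 7 of the listed heat shock genes, so this family is also where P-r1 departs from its group.

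Genes of low carbohydrate supply did not follow 1 order of libraries. Of 19 tested, 18 had estimates above 0 and 5 were higher at an unadjusted p below 0.05 (4.87% of all loci, median 0.75, 0.64 with N-r3, 0.21 without P-r1). Without P-r3, 8 were higher (3.96% of all loci), and without N-r1 or without N-r2 1 was (1.65% and 1.86% of all loci). The class II trehalose phosphate synthase gene TPS8 read 9.31 CPM in N-r1 and 9.53 in N-r2, 80.1 in N-r3, and 9.62, 112 and 106 CPM in P-r1, P-r2 and P-r3 (3.01 ± 1.04, −0.10 with N-r3 and its trend removed). TPS11 read 6.35 CPM in N-r1 and 6.54 in N-r2, 16.8 in N-r3, and 19.5, 172 and 84.4 CPM in P-r1, P-r2 and P-r3 (3.83 ± 1.33). TPS10 read 13.1 CPM in N-r1 and 13.4 in N-r2, 47.8 in N-r3, and 25.8, 51.8 and 41.0 CPM in P-r1, P-r2 and P-r3 (1.58 ± 0.35). In these 3 genes P-r1 was nearer to N-r1 and N-r2 than P-r2 and P-r3 were, and N-r3 was above N-r1 and N-r2. Some dark-inducible genes had another order within P. DIN6, an asparagine synthetase gene, read 103 CPM in N-r1 and 45.7 in N-r2, 2.59 in N-r3, and 287, 27.9 and 2.51 CPM in P-r1, P-r2 and P-r3. DIN1 read 56.2 CPM in N-r1 and 37.2 in N-r2, 18.5 in N-r3, and 343, 15.4 and 2.77 CPM in P-r1, P-r2 and P-r3. P-r1 was the highest of the 6 libraries and P-r3 the lowest for DIN1 and DIN6 alike.

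**Figure D4:**
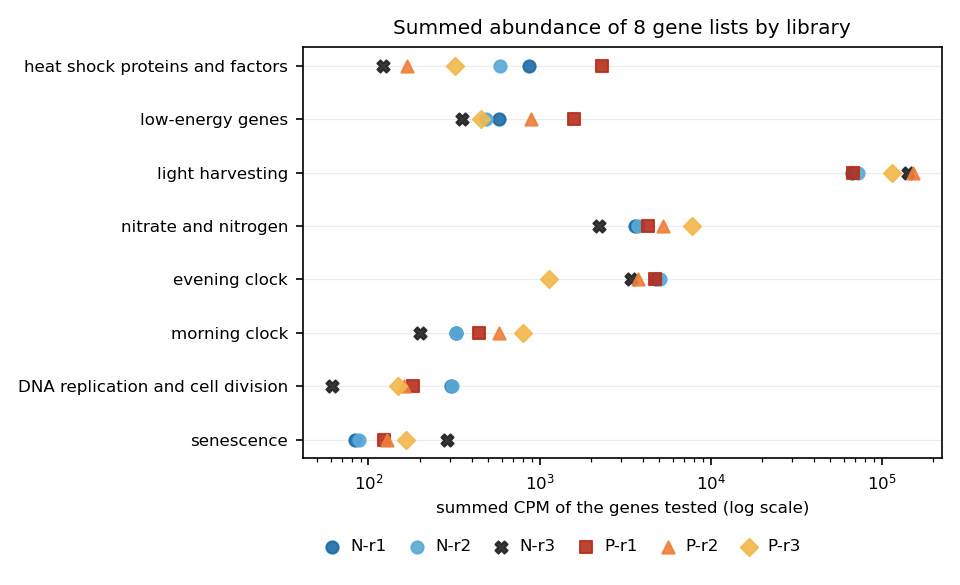
Summed level of 8 gene groups in each naive and primed library, in CPM on a log axis (horizontal), 1 row per group and 1 symbol per library. The 3 primed libraries lie together for DNA replication (148 to 181 CPM) and spread widely for heat shock proteins, where P-r1 is at 2327 CPM and P-r2 at 168 CPM.

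Among growth-related genes, the expansin genes EXPA1 and EXPA6 separated the groups in opposite directions. EXPA1, an expansin that loosens cell walls (AT1G69530, chr1:26141726-26143538), read 74.2 CPM in N-r1 and 68.7 in N-r2, 132 in N-r3, and 167, 212 and 203 CPM in P-r1, P-r2 and P-r3 (1.44 ± 0.22, adjusted p = 0.261 by edgeR, 1.08 with N-r3). Every primed library was above every naive one, and in the triggered plants the estimate of P+T minus N+T was 0.32 ± 0.21. EXPA6 had the opposite order, with 129 CPM in N-r1 and 128 in N-r2, 154 in N-r3, and 83.8, 98.8 and 82.5 CPM in P-r1, P-r2 and P-r3 (−0.54 ± 0.16), again with no overlap. Over the 14 leaf expansion genes, 2 were higher and 2 lower at an unadjusted p below 0.05 (4.87% and 3.89% of all loci, median −0.14). In 2 of the 14 every primed library was above every naive one (3.9% of all loci), and in 1 below (3.87%).

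Auxin and shade-response genes had 4 of 11 higher at an unadjusted p below 0.05 (4.87% of all loci) and none lower, with a median of 0.95 that was 0.15 with N-r3. Without P-r1, 8 were higher (10.7% of all loci) and 3 were called (2.2% of all loci called higher). With the block in the 6 naive and primed libraries none was higher, among 199 such loci in all. IAA2, an auxin-induced repressor gene, read 23.5 CPM in N-r1 and 19.2 in N-r2, 26.2 in N-r3, and 34.1, 45.4 and 31.8 CPM in P-r1, P-r2 and P-r3 (0.80 ± 0.19), with no overlap. PIF4, a growth-promoting bHLH factor, read 59.1 CPM in N-r1 and 57.7 in N-r2, 158 in N-r3, and 44.8, 202 and 142 CPM in P-r1, P-r2 and P-r3 (1.15 ± 0.50). PIF5 read 43.7 CPM in N-r1 and 42.8 in N-r2, 76.9 in N-r3, and 49.7, 133 and 145 CPM in P-r1, P-r2 and P-r3 (1.34 ± 0.42). For PIF4 and PIF5, P-r2 and P-r3 were high while P-r1 was at or below 49.7 CPM, and N-r3 was above N-r1 and N-r2. AGL20, a MADS-box activator of flowering, had all primed libraries above N-r1 and N-r2 but N-r3 higher still, with 28 CPM in N-r1 and 36.4 in N-r2, 160.0 in N-r3, and 60.5, 70.2 and 83.1 CPM in P-r1, P-r2 and P-r3 (1.15 ± 0.20, −0.07 with N-r3).

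Defence and other stress groups had members at an unadjusted p below 0.05 at about the share of all loci (4.87% higher, 3.89% lower), but the counts moved with single libraries. Of 26 salicylate genes 1 was lower, and 5 were lower without P-r1 (9.69% of all loci) and 8 without P-r1 but with N-r3 (5.16%). The former was WRKY70, a factor that balances salicylate against jasmonate signalling, with 56.2 CPM in N-r1 and 69.9 in N-r2, 27.3 in N-r3, and 29.8, 19.9 and 13.3 CPM in P-r1, P-r2 and P-r3 (−1.58 ± 0.50). Of 27 jasmonate genes 1 was lower, and 7 without P-r3 (4.29% of all loci). The former was OPR3, a jasmonate biosynthesis gene, with 439 CPM in N-r1 and 315 in N-r2, 191 in N-r3, and 166, 27.6 and 174 CPM in P-r1, P-r2 and P-r3 (−1.61 ± 0.65). Both thus had every primed library below N-r1 and N-r2, and below N-r3 too for OPR3, but for WRKY70 P-r1 was above N-r3. The 31 genes of rapid stress transcription had none in either direction (median 0.14, −0.37 with N-r3). Of 31 genes of abscisic acid, cold and drought 1 was higher (CBF2) and 2 lower (RD29A and KIN2). Of 25 antioxidant enzymes 1 was higher (SRX, sulfiredoxin) and 1 lower. The latter was DHAR1, a dehydroascorbate reductase, at 1038 CPM in N-r1 and 573 in N-r2, 747 in N-r3, and 344, 153 and 454 CPM in P-r1, P-r2 and P-r3 (−1.34 ± 0.53), with every primed library below every naive one.

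Of 23 flavonoid and anthocyanin genes 2 were higher (4.87% of all loci) and 4 lower (3.89%), with a median of 0.46. Without P-r3 1 was higher (3.96% of all loci) and 10 were lower (4.29%), with a median of −1.41. Without N-r1 1 was higher (1.65%) and none lower (1.52%), so these counts rest on single libraries. The 4 lower were FLS1, UGT78D1, MYB111 (an activator of flavonol genes) and GL3 (a bHLH factor of anthocyanin and trichome genes). FLS1, flavonol synthase, read 15.9 CPM in N-r1 and 13.2 in N-r2, 15.1 in N-r3, and 6.51, 6.67 and 11.8 CPM in P-r1, P-r2 and P-r3 (−0.80 ± 0.33). The flavonol glycosyltransferase gene UGT78D1 read 117 CPM in N-r1 and 97.7 in N-r2, 75.1 in N-r3, and 46.8, 33.8 and 75.9 CPM in P-r1, P-r2 and P-r3 (−1.04 ± 0.31), with P-r3 about level with N-r3. MYBL2, a repressor of anthocyanin synthesis, was among those higher, with 11.5 CPM in N-r1 and 13.8 in N-r2, 81.8 in N-r3, and 16.1, 129 and 107 CPM in P-r1, P-r2 and P-r3 (2.73 ± 0.79), and P-r1 was nearer to N-r1 and N-r2 than N-r3 was. Starch and sugar genes had 1 of 23 higher and none lower (median −0.22, 0.01 with N-r3), plasma membrane aquaporins 1 of 13 higher, and the aliphatic glucosinolate and sulfur genes 2 of 18 higher, APR2 and LSU1, of which LSU1 was highest in N-r3. The 5 senescence genes had a median of 3.00, which was −0.09 with N-r3, and none reached an unadjusted p of 0.05.

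**Figure D5:**
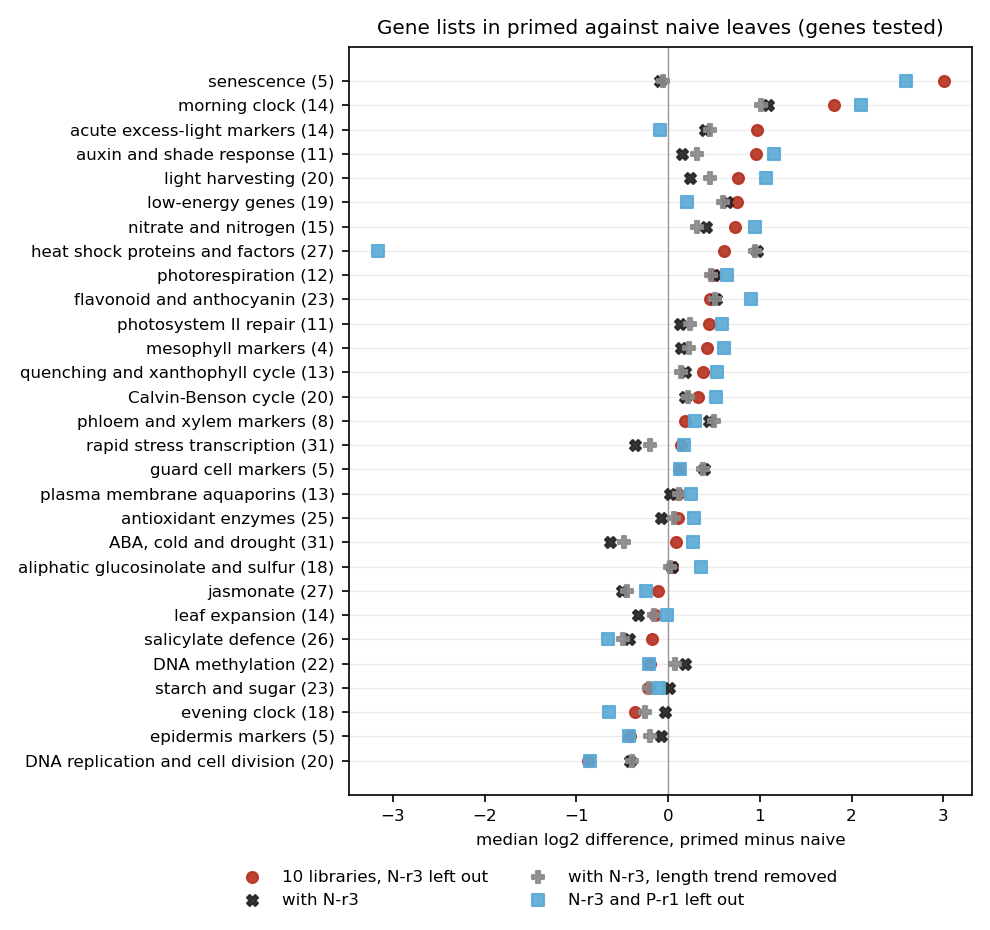
Median log2 difference, primed minus naive, of the genes tested in each of 29 lists (horizontal axis, number of genes in brackets), in 4 fits: without N-r3, with N-r3 as deposited, with N-r3 after removal of its length trend, and without N-r3 and P-r1. The replication genes lie between −0.87 and −0.39 and the morning clock genes between 1.01 and 2.11 in all 4, while the heat shock genes go from 0.97 to −3.17.

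The loci ranked first by the test had moderate differences and small spreads. The 12 highest-ranked among those higher in P had estimates of 0.73 to 1.83, and the 12 among those lower −2.05 to −0.91, all at adjusted p of 0.261 or 0.262 (edgeR). Of the former 3 and of the latter 2 had no overlap between the 3 naive and the 3 primed libraries. Over all loci 3.9% had none with P higher and 3.87% with P lower. All of these libraries but N-r3 also entered the ranking. AT1G31690, a copper amine oxidase gene, had the widest gap of those lower, with 238 CPM in N-r1 and 178 in N-r2, 16.5 in N-r3, and 57.2, 48.6 and 44.0 CPM in P-r1, P-r2 and P-r3 (−2.05 ± 0.25). N-r3 was below all primed libraries there, as it was for Cpn60beta2, a chloroplast chaperonin gene, with 267 CPM in N-r1 and 265 in N-r2, 22.5 in N-r3, and 133, 93.5 and 117 CPM in P-r1, P-r2 and P-r3 (−1.21 ± 0.19). The lower loci without overlap were AT4G32290 and HCD1. AT4G32290, a glycosyltransferase family gene, read 19.8 CPM in N-r1 and 19.7 in N-r2, 16.9 in N-r3, and 9.81, 9.65 and 7.02 CPM in P-r1, P-r2 and P-r3 (−1.16 ± 0.18, −1.09 with N-r3). HCD1 read 37.1 CPM in N-r1 and 37.9 in N-r2, 22.1 in N-r3, and 21.0, 16 and 19.5 CPM in P-r1, P-r2 and P-r3 (−0.99 ± 0.16). The higher ones were EXPA1 and RVE7, described above, and AT5G14120, a transporter family gene, with 54.9 CPM in N-r1 and 62.0 in N-r2, 103 in N-r3, and 126, 219 and 200.0 CPM in P-r1, P-r2 and P-r3 (1.64 ± 0.31). In the triggered plants 5 of the 12 higher and 4 of the 12 lower had an estimate of the same sign.

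N-r3, which took no part in the ranking, can be placed against the primed libraries at loci with an unadjusted p below 0.05. The primed libraries did take part, so the shares at those loci are partly set by that choice. They are therefore not directly comparable with the shares over all loci. Over all loci it was below every primed library at 37.7%, within their range at 26.9% and above all of them at 35.4%. At the 876 loci higher in P it was below every primed library at 233 (26.6%), within their range at 344 (39.3%) and above all of them at 299 (34.1%). At the 700 lower loci it was above every primed library at 220 (31.4%), within their range at 114 (16.3%) and below all of them at 366 (52.3%). The triggered libraries, from other plants, gave an estimate of P+T minus N+T above 0 at 389 of the 876 (44.4%) and below 0 at 201 of the 700 (28.7%), where 51.0% of all loci were above 0.

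Among the edgeR fits run, calls at an adjusted p below 0.05 appeared only when P-r1 and N-r3 were both left out, with 396 loci higher (2.2%) and 241 lower (1.34%). P-r1 and N-r3 were not used in that fit and can be set against N-r1 and N-r2, which the fit did use. At the 396 higher loci the median log2 difference from N-r1 and N-r2 was 1.52 for P-r2 and P-r3, 0.11 for P-r1 and 1.12 for N-r3, and P-r1 was above both N-r1 and N-r2 at 199 (50.3%, against 41.8% of all loci). At the 241 lower loci the medians were −1.20, −0.18 and −1.20, and P-r1 was below both at 141 (58.5%, against 39.6% of all loci). The medians of N-r3 were thus nearer to those of P-r2 and P-r3 than the medians of P-r1 were, and with its length trend removed they were 1.29 and −0.95. N-r1 and N-r2 helped select these loci, so distances from them are partly set by that choice. Over all loci N-r3 was also farther from them (0.757 and 0.740) than P-r1 was (0.245 and 0.274). At the higher loci P-r1 was below both at 137 (34.6%, against 39.6% of all loci). N-r3 was below both P-r2 and P-r3 at 234 of them (59.1%, against 43.4% of all loci). P-r2 and P-r3 also helped select these loci, so this share is partly set by that choice.

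Markers of leaf cell types differed by type. The 5 guard cell markers were summed to between 79.8 and 113 CPM in the 6 libraries. Of the 5 only MYB60 was higher at an unadjusted p below 0.05 (4.87% of all loci). Without N-r2 or without P-r3 none was (1.86% and 3.96% of all loci). The 4 mesophyll markers were at 33692 to 57166 CPM, with P-r1 lowest and P-r2 highest, and the 8 phloem and xylem markers had none in either direction. The 5 epidermis markers all had estimates below 0 (median −0.41, −0.08 with N-r3). In 3 of them every primed library was below N-r1 and N-r2 (12.3% of all loci). Only PDF2 was lower at an unadjusted p below 0.05 (3.89% of all loci). They were summed to 735, 848 and 1077 CPM in N-r1, N-r2 and N-r3 and to 482, 562 and 786 CPM in P-r1, P-r2 and P-r3, so that P-r3 lay between N-r1 and N-r2. Markers of shoot meristem, flower and root did not pass the filter, with at most 24 counts in a library. No defining marker of those organs was thus present above that level in either group.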

How the data were processed

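Poly(A) RNA of whole leaves was sequenced with a stranded single-end protocol. The authors trimmed the reads (Trim Galore 0.3.7, cutadapt 1.9), aligned them uniquely to TAIR10 with Subread 1.6.2 and deposited 1 table per library of raw counts per Araport11 locus, made with featureCounts 1.5.0-p1 on the reverse strand. The tables hold 33341 loci. Here 33052 nuclear loci were kept, after removal of 133 chloroplast, 152 mitochondrial and 4 rRNA loci, and 17986 of them exceeded 1 CPM in 3 or more of the 12 libraries.

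The main test was edgeR's quasi-likelihood test (edgeR 4.0.16, R 4.3.3, TMM scaling, 1 mean per group) on 10 libraries, without N-r3 and N+T-r3 as in the study, with Benjamini-Hochberg adjustment. The study describes its replicates as independent plants, while the labels number the replicates without naming a plant. DESeq2 1.42.0, other scalings and filters, other sets of libraries and leaving out each library were run as alternatives. The scripts were tested on simulated counts. The length trend of N-r3 was removed as a smooth function of transcript length, an alternative chosen after the data were seen, as were both E2F motifs, the fit with N-r3 and without P-r1, and the fit with N-r3 and a block. Same-numbered N and P libraries deviated together (correlations of 0.149, 0.343 and 0.257 over loci, the last with N-r3). This meets the rule set for pairing, although the plants were independent. Same-numbered N and N+T libraries did not (−0.08, −0.34 and −0.32). Those of P and P+T (0.34, −0.10 and −0.33) and of N+T and P+T (0.62, −0.31 and 0.70) were mixed. The replicate number thus did not mark the same pairing across groups. Replicates of a group differed by more than sampling noise (chi-square per degree of freedom of 67.2 to 341), so none was counted as a duplicate. Intervals and tests cover the spread between these libraries only.

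Genes and lists were chosen with earlier results of these data known. Named genes were the 12 loci in each direction with the smallest p and a mean of at least 5 CPM, the members of each list at an unadjusted p below 0.05 and the 2 most abundant, the acute EL markers, 7 clock genes with CMT3, and the 8 loci in each direction that set N-r3 or P-r1 apart from its group. AUR2, CAT2, DIN1, DIN6, ELF4, FTSH2, NIR1, PSBS, ROS1, RVE6 and STRS2 were named after their values were seen. Promoter sequence is from the TAIR10.1 reference genome, with locus starts from the count tables.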

Additional observations from a re-analysis of the deposited data

Results flagged for a closer look

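AT4G15690, a thioredoxin superfamily gene, was the only locus whose difference between primed and naive plants itself differed with triggering, by a log2 interaction of 2.54 ± 0.22 (adjusted p = 0.0325, edgeR, 10 libraries). With N-r3 the value was 1.37 (adjusted p = 0.737, edgeR, 11 libraries) and with all 12 libraries 1.11 (adjusted p = 0.997), and neither fit called any locus. Groups of 3 libraries are too small for a test of single outlying libraries.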

How the results depend on the processing

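The count of called loci was 0 in every edgeR fit except the one that leaves out both P-r1 and N-r3. With N-r3 kept and P-r1 left out it was 0 (smallest adjusted p = 0.0534, 1724 loci unadjusted). Leaving out 1 library gave 0 to 637, and DESeq2 called 342. The count at an unadjusted p below 0.05 was 690 with all 12 libraries, 777 with N-r3 alone restored, 929 with N-r3 after removal of its length trend, and 384 with the 6 naive and primed libraries only. Leaving out 1 library gave 570 (N-r1) to 3663 (P-r1), and 704 without N-r2. The share of loci with an interval between −1 and 1 was 40.8% with all 12 libraries, 43.6% with N-r3, 55.5% with the 5 and 30.4% with the 6 naive and primed libraries, 42.7% without the CPM filter, and 41.9% to 57.9% when 1 library was left out. In each case the number of libraries or loci in the fit differs by construction.

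With the replicate block no locus was called, as without it, 1400 passed the unadjusted threshold and the share was 59%. Some lists moved with the block. The median of the acute EL markers went from 0.97 to −0.18, and the replication members lower at an unadjusted p below 0.05 went from 14 to 11. The 6 naive and primed libraries with the block gave 0 called and 421 unadjusted loci.

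Of 56 genes given with a log2 difference, 12 changed sign under some alternative. AGL20 was at −0.0699 with all 12 and with 11 libraries and −0.0831 with the 6 libraries. TPS8 was at −0.10 with N-r3 and its trend removed. With the 6 libraries and the block, the values were 0.46 for CYCB1-2, 0.40 for MCM2, 0.30 for MCM3, 0.18 for MCM4, 0.0632 for MCM5, 0.23 for MCM6, 0.37 for MCM7, 0.0276 for MET1, 0.23 for RNR1 and 0.14 for VIM1. Of 522 medians over 29 lists and 18 settings, 460 moved by less than the spread between replicates and 62 by more. A move within that spread could still change the sign. The flavonoid and anthocyanin median went from 0.46 to −0.93 with the replicate block and is counted among the 460. So is the rapid stress transcription median, which went from 0.14 to −0.37 with N-r3. The 460 are thus not a count of stable medians. The cause of the moves was not tested. The comparison rests on 2 naive libraries once N-r3 is left out, and low genes such as LHY, below 1 CPM in both, have the wide intervals that few counts give.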
